A study of Danio rerio with 12 samples.

Results

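The comparison described here set the GFP+ fraction of heart cells against the GFP- fraction at 72 hpf, across all genes. Its members were chosen by their labels and are 6 of the 12 libraries of the series, 3 from GFP+ cells and 3 from GFP- cells at 72 hpf, and 23222 of the 27191 genes in the files passed the filter on low counts. Both groups came from zebrafish embryos of the same transgenic line, *sqet31Et*, at the same age. The remaining 6 libraries, from GFP+ and GFP- cells at 48 hpf, entered the fit to share its estimate of spread and served to test whether a difference changed between the stages.

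The line *sqet31Et* is an enhancer trap, in which a Tol2 transposon carries EGFP behind a basic promoter of the keratin gene *krt4* and takes on the expression of the genes near its insertion. The paper describes EGFP in the ring of the atrioventricular canal (AVC) and more weakly in some other myocardium. From 72 hpf it also describes EGFP in the bulbus arteriosus (BA). Small groups of EGFP cells facing the lumen at 72 hpf are, in the paper's reading, most likely the developing AV cushion. The GFP+ gate is thus not a single cell type. Hearts came from a bulk extraction of whole embryos, and the fluorescent ones were picked by hand out of the other tissue, pooled, dissociated with trypsin and sorted by fluorescence. The GFP- fraction is therefore whatever else the picked material held, and the sort gives no further separation of its cell types. Polyadenylated RNA was copied into whole-length cDNA and sequenced.

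The AVC is the constriction between atrium and ventricle. Its myocardium expresses T-box factors and BMP ligands, conducts slowly, and signals to the endocardium beneath it, where cells leave the epithelium and form the valve cushions. Valve endocardium responds to blood flow through Krüppel-like factors and Notch, while the cushions fill with hyaluronan, versican and later with fibrillar matrix. The BA of fish is the elastic chamber at the arterial end of the heart, with a wall of smooth muscle and elastic fibres, and it is built from cells of the second heart field that are added late to the outflow tract.

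Values are in CPM, counts divided by library sizes that were corrected with edgeR's TMM factors and set to a common total, and are given for replicates 1, 2 and 3 in that order. They are not divided by gene length, so levels are compared between fractions and not between genes. A log2FC is the GFP+ minus the GFP- value on the log2 scale, given ± an approximate standard error (SE). This SE was calculated back from the test, as the absolute log2FC over the square root of the F statistic. The padj of a log2FC is its p-value from the quasi-likelihood test of edgeR, adjusted by Benjamini-Hochberg over all genes tested and called below 0.05. The GEO record calls the replicates biological and a legend of the paper calls them technical. In the second case the SE and padj would cover technical spread alone. In these bulk libraries, fewer cells of a type and less RNA per cell cannot be told apart.

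The GFP+ libraries held 25913598 to 62359004 counts and the GFP- libraries 20530602 to 45035663 counts. Replicate 1 of GFP- stood apart from the rest. Its 10 most counted genes took 21.0% of its counts, against at most 8.47% in the other libraries at 72 hpf, its TMM factor was 0.575, against 0.886 to 1.18, and its rank correlation with the other GFP- libraries was 0.868 to 0.910, against 0.964 between those. The 13 mitochondrially encoded genes summed to 11158, 17374 and 13784 CPM in GFP+ libraries, against 44016, 10703 and 9710 CPM in GFP- libraries. Each result was therefore computed with and without that library. Genes of heart muscle were detected in all 6 libraries. *hand2*, a transcription factor of heart and outflow tract, had 1786, 2061 and 1284 CPM in GFP+ libraries, against 1125, 956 and 487 CPM in GFP- libraries.

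Of the 23222 genes tested, 1445 (6.22%) were higher in GFP+ cells and 2499 (10.8%) were lower. With an absolute log2FC above 2, 522 were higher and 1877 lower, and 49 and 593 when edgeR's glmTreat tested the limit itself. Leaving out replicate 1 of GFP- gave 1700 genes higher (7.13%) and 2773 lower (11.6%) of 23839 tested, and 1278 of the genes higher and 2220 of the genes lower were called in both fits. Without replicate 2 of GFP+, 787 were higher and 1621 lower. With replicate number as a block, 2044 were higher and 2439 lower. In 31.3% of the genes every GFP+ library lay on the same side of every GFP- library, above or below. The median log2FC over all genes was -0.02, and 0.10 without replicate 1.

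Of the 8 largest rises among well expressed genes that the rule named, 4 are members of the elastic fibre list (*loxa*, *fbln5*, *htra1a* and *elnb*) and are described with the outflow tract. The other 4 were *krtt1c19e*, *thbs2b*, *angptl2a* and *ceacam1*. *krtt1c19e*, a keratin of the basal epidermis, had 27.3, 57.4 and 23.6 CPM in GFP+ libraries, against 1.86, 1.11 and 0.170 CPM in GFP- libraries (log2FC 5.20 ± 1.28, padj = 0.0140). *thbs2b*, a thrombospondin of the extracellular matrix, had 34.7, 49.2 and 55.1 CPM in GFP+ libraries, against 1.19, 2.51 and 2.69 CPM in GFP- libraries (log2FC 4.41 ± 0.51, padj = 0.000146). *angptl2a*, which encodes a secreted angiopoietin-like protein, had 413, 711 and 529 CPM in GFP+ libraries, against 20.8, 32.0 and 33.6 CPM in GFP- libraries (log2FC 4.26 ± 0.46, padj = 9.81e-05). *ceacam1*, a cell adhesion molecule, had 136, 88.2 and 95.4 CPM in GFP+ libraries, against 3.90, 8.70 and 5.58 CPM in GFP- libraries (log2FC 4.12 ± 0.76, padj = 0.00252). The rule took only genes whose groups do not overlap and that were called with and without replicate 1 of GFP-, so both hold for these 8 by choice.

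The largest falls were in genes of photoreceptors and red blood cells. *opn1lw2*, a cone opsin, had 0.453, 0.115 and 0.119 CPM in GFP+ libraries, against 293, 273 and 639 CPM in GFP- libraries (log2FC -10.68 ± 1.26, padj = 0.000164). The retinoschisin gene *rs1a* and *rho*, the opsin of rods, had log2FC of -10.67 and -10.43 (padj = 5.77e-05 and 7.71e-05), with every GFP+ library below 1 CPM. The other 5 of the 8 were globins, namely *hbae1.3*, *hbae3* and 3 genes that carry the human name HBE1. Embryonic globin genes are near-identical copies, so their shares of the reads are uncertain. *hbae3* had 10.6, 13.3 and 1.503 CPM in GFP+ libraries, against 26878, 2958 and 2658 CPM in GFP- libraries, with the highest value in replicate 1 of GFP- (log2FC -10.31 ± 1.66, padj = 0.00114).

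The AVC patterning list held 16 genes, all tested, of which 5 were higher in GFP+ cells, 2 were lower and 9 were not called, with a median log2FC of 0.75. These are shares of 31.3% higher and 12.5% lower, against 6.22% and 10.8% of all genes, so that the falls are near the share of all genes. The falls numbered 1 without replicate 1 or 2 of GFP+ or replicate 3 of GFP-. The same counts were obtained without replicate 1 of GFP-, with a median of 0.60. *tbx20*, a T-box factor of the heart, had 114, 105 and 163 CPM in GFP+ libraries, against 23.3, 24.0 and 23.9 CPM in GFP- libraries (log2FC 2.42 ± 0.41, padj = 0.00161). The 3 GFP- values lay within 1 CPM of each other and the groups were far apart. The hairy-related repressors *hey1* and *hey2*, which in mouse set the border between chamber and AVC, rose as well. *hey1* had 64.6, 131 and 134 CPM in GFP+ libraries, against 23.0, 12.5 and 31.4 CPM in GFP- libraries (log2FC 2.301 ± 0.53, padj = 0.00940), and *hey2* had 80.2, 75.7 and 45.3 CPM in GFP+ libraries, against 23.0, 22.7 and 10.04 CPM in GFP- libraries (log2FC 1.85 ± 0.39, padj = 0.00542).

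*bmp4*, the BMP ligand of AVC myocardium in zebrafish, had 112, 120.5 and 119 CPM in GFP+ libraries, against 47.6, 69.0 and 63.9 CPM in GFP- libraries (log2FC 0.96 ± 0.22, padj = 0.0102). Its 3 GFP+ libraries were close together and above every GFP- library, although the difference was smaller than in *tbx20*, *hey1* and *hey2*. *msx1b*, a homeobox gene of the BMP response, rose by 1.04 (padj = 0.0218). *tbx2b*, a T-box repressor of chamber genes in the AVC, had 63.5, 52.4 and 64.7 CPM in GFP+ libraries, against 29.4, 42.8 and 52.8 CPM in GFP- libraries (log2FC 0.53 ± 0.26, padj = 0.191), and replicate 3 of GFP- overlapped the lowest GFP+ library. *wnt2bb*, a Wnt ligand, had 2.41, 3.15 and 2.93 CPM in GFP+ libraries, against 0.932, 1.44 and 1.40 CPM in GFP- libraries. Its groups did not overlap and it was not called (log2FC 1.15 ± 0.39, padj = 0.0658).

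The other T-box repressor of the canal, *tbx3a*, went the other way, with 3.26, 3.09 and 6.09 CPM in GFP+ libraries, against 6.86, 10.7 and 33.6 CPM in GFP- libraries (log2FC -2.05 ± 0.51, padj = 0.0141). *foxn4*, a forkhead factor upstream of *tbx2b* in the zebrafish AVC that is also expressed in retina and spinal cord, had 0.471, 0.365 and 1.23 CPM in GFP+ libraries, against 6.18, 3.27 and 8.55 CPM in GFP- libraries (log2FC -3.19 ± 0.47, padj = 0.000616). Both genes were lower in every GFP+ library than in any GFP- library, and in both replicate 3 of GFP- was the highest. The same library was the highest in the retina and neuron marker lists. Over the 23 retina and lens markers the summed level was 10.9 to 21.0 CPM in GFP+ libraries and 1105 to 2514 CPM in GFP- libraries, and over the 20 neuron markers it was 255 to 359.7 CPM in GFP+ libraries and 1008 to 2239.6 CPM in GFP- libraries. Of the tested members of these lists, 16 of 21 and 17 of 20 were lower in GFP+ cells and none was higher, against 10.8% and 6.22% of all genes. At or under 3 counts in every GFP+ library were CRYAA, *cryba1b*, *opn1lw1* and a gene named RPE65. The part of these cells in the falls of *tbx3a* and *foxn4* was not tested.

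Of 25 genes of the list for pacemaker and AV node conduction, 9 were higher in GFP+ cells (36%, against 6.22% of all genes) and 4 were lower (16%, against 10.8%). The share of falls is thus not far from that of all genes. The median log2FC was 0.46. Without replicate 1 of GFP- the counts were 9 and 5, with a median of 0.33. The list holds genes that the paper names as enriched in GFP+ cells of these same data, among them *cacna1g*, *cacna1c*, *trpm4*, *cx36.7* and *cx43.4*. Its share of rises is therefore a description. Most rises were in ion channels, gap junction and cAMP-binding membrane proteins. The T-type calcium channel *cacna1g* had 13.3, 11.6 and 21.2 CPM in GFP+ libraries, against 2.37, 2.51 and 4.26 CPM in GFP- libraries (log2FC 2.32 ± 0.35, padj = 0.000719). The L-type calcium channel *cacna1c* had 9.60, 13.0 and 17.6 CPM in GFP+ libraries, against 0.339, 2.53 and 3.13 CPM in GFP- libraries (log2FC 2.68 ± 0.55, padj = 0.00487). The lowest GFP+ library was above the highest GFP- library in both. The cation channel *trpm4a* and the potassium channel *kcnq1.1* rose by 2.18 and 2.14 (padj = 0.0101 and 0.0222).

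Among the connexins, which form gap junctions, *cx43.4* and *cx36.7* rose. *cx43.4* had 289.7, 260.3 and 228 CPM in GFP+ libraries, against 80.6, 94.6 and 85.5 CPM in GFP- libraries (log2FC 1.58 ± 0.25, padj = 0.00102). *cx36.7*, a connexin of the zebrafish heart, had 1.81, 1.497 and 0.989 CPM in GFP+ libraries, against 0.0847, 0.196 and 0.0681 CPM in GFP- libraries (log2FC 3.46 ± 0.62, padj = 0.00225). Both were without overlap, *cx36.7* at a level below 2 CPM in every library. The other 5 connexins of the list were not called, with a log2FC between -0.33 and 1.35. *bves* and *popdc2*, Popeye genes that encode cAMP-binding membrane proteins of heart muscle, rose by 1.16 and 1.65 (padj = 0.0193 and 0.00737). *hcn4*, the main pacemaker channel, had 2.57, 2.88 and 2.49 CPM in GFP+ libraries, against 0.847, 1.70 and 3.10 CPM in GFP- libraries (log2FC 0.46 ± 0.39, padj = 0.436), and its GFP- libraries spanned the GFP+ values.

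*tbx18*, a T-box factor of the sinus horn in mouse and of the epicardium, showed the largest rise of this list, with 119, 116 and 71.0 CPM in GFP+ libraries, against 4.74, 9.38 and 6.98 CPM in GFP- libraries (log2FC 3.85 ± 0.57, padj = 0.000708). The groups were far apart. *tbx18* is also an epicardium marker, and over the 10 epicardium markers the summed level was 1006 to 1683 CPM in GFP+ libraries and 525 to 1257 CPM in GFP- libraries. Of these markers 5 were higher in GFP+ cells (7 without replicate 1 of GFP-) and none was lower, against 6.22% and 10.8% of all genes. TCF21, a defining epicardial factor, had 32.7, 15.5 and 9.53 CPM in GFP+ libraries, against 41.3, 5.95 and 6.26 CPM in GFP- libraries (log2FC 0.12 ± 0.68, padj = 0.918), and *wt1a*, another, had 10.3, 7.33 and 3.68 CPM in GFP+ libraries, against 1.19, 0.828 and 0.647 CPM in GFP- libraries (log2FC 3.04 ± 0.61, padj = 0.00442). The part of epicardial cells in the rise of *tbx18* was not tested.

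The genes lower in GFP+ cells included *isl1*, *shox2* and *cacna1da*. *isl1*, a LIM homeobox factor of second heart field progenitors and sinoatrial pacemaker cells that also marks motor neurons and retina, had 12.5, 6.70 and 11.4 CPM in GFP+ libraries, against 81.1, 56.0 and 139 CPM in GFP- libraries (log2FC -3.18 ± 0.38, padj = 0.000173). Every GFP+ library was below every GFP- library, and replicate 3 of GFP- was again the highest. *shox2*, a sinoatrial factor in mouse, had 0.960, 1.02 and 1.19 CPM in GFP+ libraries, against 2.03, 2.398 and 4.19 CPM in GFP- libraries (log2FC -1.46 ± 0.40, padj = 0.0230). With replicate number as a block, 2 genes of this list were lower instead of 4, and there were 2 without replicate 2 of GFP+ and 1 without replicate 3 of GFP-. *cacna1da*, a calcium channel also of neurons and retina, averaged under 3 CPM in both fractions and was not called with the block (padj = 0.0520).

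Working myocardium was the program with the highest median, at a log2FC of 1.80 over 26 genes. The list also holds genes of heart muscle in general, such as *myl7* and *nkx2.5*, so it does not set chamber muscle apart from AVC muscle. Of these, 13 were higher in GFP+ cells (50%, against 6.22% of all genes) and 1 was lower (3.85%, against 10.8%). With replicate number as a block 17 were higher. Without replicate 1 of GFP- there were 20 higher and none lower, and the median was 1.74. This was the only program list whose count of members higher moved by over 1.5 times without that library, and the count was 5 without replicate 2 of GFP+ and 8 without replicate 3 of GFP-. The myosin heavy chain *myh6* had 26.9, 32.9 and 20.5 CPM in GFP+ libraries, against 0.847, 0.371 and 2.55 CPM in GFP- libraries (log2FC 4.40 ± 0.74, padj = 0.00154). The ventricular myosin genes *myh7* and *myh7l* had log2FC of 2.72 and 3.14 (padj = 0.0216 and 0.0218), and *mybpc3*, which encodes a myosin-binding protein, one of 2.90 (padj = 0.00801). *nppa*, the natriuretic peptide gene of working chamber muscle, had 121, 180.2 and 96.1 CPM in GFP+ libraries, against 17.0, 15.5 and 21.0 CPM in GFP- libraries (log2FC 2.89 ± 0.71, padj = 0.0141). The groups of these 5 genes did not overlap.

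*myl7*, the heart-specific myosin light chain, shows how replicate 1 of GFP- entered the comparison. It had 513, 798 and 435 CPM in GFP+ libraries, against 330.0, 114 and 51.9 CPM in GFP- libraries. The groups did not overlap, yet replicate 1 of GFP- lay closer to the GFP+ libraries than to the other GFP- libraries, and the gene was not called (log2FC 1.82 ± 0.69, padj = 0.0907). It was called without that library (log2FC 2.83, padj = 0.00886) and with replicate number as a block (log2FC 2.21, padj = 0.0483). *tnni1b*, *tnnt2a*, *tpm4a*, *nppb*, *nkx2.5* and *hand2* were called without that library and not with it, with log2FC of 0.94 to 3.06, against 0.52 to 1.89 with it, and of these *tpm4a* and *hand2* were also called with the block (padj = 0.0453 and 0.0135). The 1 member lower was *myl4*, a myosin light chain, with 4.33, 0.384 and 3.36 CPM in GFP+ libraries, against 30.4, 11.6 and 9.09 CPM in GFP- libraries (log2FC -2.66 ± 0.72, padj = 0.0230). That call was lost without replicate 1 of GFP- (log2FC -1.93, padj = 0.0719).

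**Figure D1:**
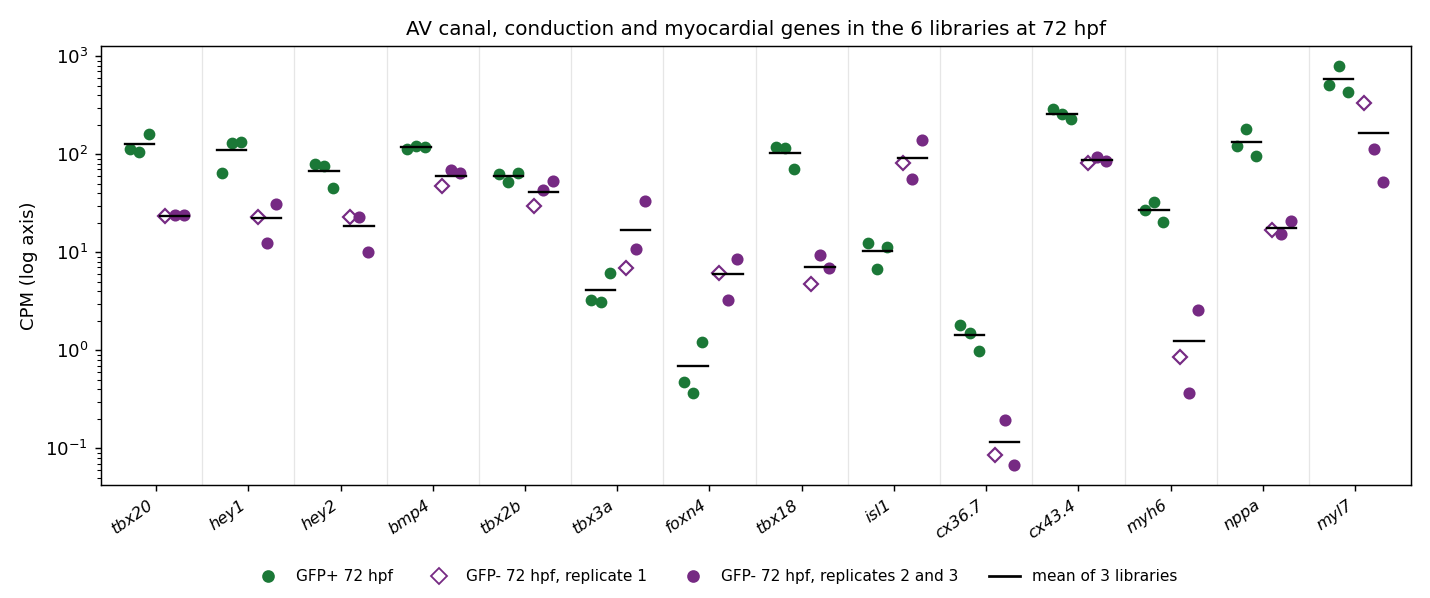
Level (CPM, log axis) of 14 genes of the AVC, conduction and myocardium lists in the 6 libraries at 72 hpf, GFP+ on the left of each pair, replicate 1 of GFP- as an open diamond and the mean of 3 libraries as a black line. GFP+ libraries lie above all GFP- libraries for *tbx20*, *hey1*, *hey2*, *tbx18* and *cx43.4* and below them for *tbx3a*, *foxn4* and *isl1*, and *myl7* shows replicate 1 of GFP- close to the GFP+ libraries.

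Of 30 valve endocardium genes tested of 31, 9 were lower in GFP+ cells (30%, against 10.8% of all genes) and 3 were higher (10%, against 6.22%), with a median log2FC of -0.72. Without replicate 2 of GFP- the falls were 6 and the median was -0.38. Without replicate 1 of GFP- the counts were 12 lower and 2 higher of 31, with a median of -0.78. *egfl7*, a secreted protein of endothelial cells, had 65.8, 36.2 and 30.7 CPM in GFP+ libraries, against 521, 221 and 94.6 CPM in GFP- libraries (log2FC -2.66 ± 0.57, padj = 0.00652). *flt1*, a VEGF receptor of endothelium, had 11.4, 10.98 and 15.2 CPM in GFP+ libraries, against 28.5, 80.0 and 51.3 CPM in GFP- libraries (log2FC -2.09 ± 0.44, padj = 0.00559). *tek*, the angiopoietin receptor, had 23.0, 8.75 and 14.8 CPM in GFP+ libraries, against 26.9, 119 and 51.4 CPM in GFP- libraries (log2FC -2.09 ± 0.65, padj = 0.0443, and 0.0654 with replicate number as a block). These genes were lower in every GFP+ library than in any GFP- library, but the highest GFP- library was replicate 1 for *egfl7* and replicate 2 for *flt1* and *tek*. CLDN5, an endothelial claudin, and *dll4*, a Notch ligand of endothelium, had log2FC of -1.78 and -0.95 (padj = 0.00544 and 0.0271).

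Genes tied to flow and to signals from endocardium to myocardium were among those that fell. *klf17*, a Krüppel-like factor that in zebrafish also acts in early red blood cells, showed the largest fall of the list, with 0.217, 0.538 and 0.633 CPM in GFP+ libraries, against 21.5, 13.1 and 7.22 CPM in GFP- libraries (log2FC -4.93 ± 0.55, padj = 0.000115). The 13 erythroid markers summed to 88.7, 100.7 and 62.8 CPM in GFP+ libraries, against 56897, 7471 and 5873 CPM in GFP- libraries, with the GFP- libraries in the same order as for *klf17*. Their part in its fall was not tested. *nrg1*, the neuregulin ligand made by endocardium, had 3.64, 3.57 and 5.85 CPM in GFP+ libraries, against 18.4, 28.0 and 17.6 CPM in GFP- libraries (log2FC -2.299 ± 0.42, padj = 0.00232). TRPV4, a calcium channel that responds to flow in endocardium, had 8.09, 7.29 and 17.6 CPM in GFP+ libraries, against 18.3, 98.1 and 55.3 CPM in GFP- libraries (log2FC -2.39 ± 0.67, padj = 0.0262), and *id4*, an inhibitor of bHLH factors, had a log2FC of -2.496 (padj = 0.00990). *klf2a*, the flow-responsive factor of zebrafish valves, had 299.8, 319 and 377 CPM in GFP+ libraries, against 464, 547 and 578 CPM in GFP- libraries. All of its GFP+ libraries were below all GFP- libraries, and the difference was not called (log2FC -0.67 ± 0.31, padj = 0.167). The paralog *klf2b* had a log2FC of -1.46 (padj = 0.0715) and was called without replicate 1 of GFP- (log2FC -1.84, padj = 0.00636), as were *wnt9b* and *cdh5*. These 3 genes were also called with replicate number as a block (padj = 0.0368, 0.0109 and 0.0176).

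Other valve genes of the endocardium were not called with or without replicate 1 of GFP-, and the sign of NFATC1 and HAS2 turned without it. *notch1b* had 15.6, 17.1 and 20.8 CPM in GFP+ libraries, against 9.57, 35.02 and 19.9 CPM in GFP- libraries (log2FC -0.28 ± 0.44, padj = 0.695). NFATC1, the calcium-regulated factor of valve endocardium, had 142, 123 and 148 CPM in GFP+ libraries, against 28.5, 199 and 119 CPM in GFP- libraries (log2FC 0.25 ± 0.60, padj = 0.799), and without replicate 1 of GFP- its log2FC was -0.19. HAS2, the hyaluronan synthase of the cushions, had 178, 238 and 304 CPM in GFP+ libraries, against 88.3, 335 and 283 CPM in GFP- libraries (log2FC 0.03 ± 0.54, padj = 0.978), and -0.34 without that library. In all 3 genes replicate 1 of GFP- was the lowest and replicate 2 the highest of the 6 libraries, so that the groups overlapped fully.

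The 3 genes of the list that rose were *cldn5a*, *podxl* and *jag1b*. *cldn5a*, a claudin of tight junctions, had 55.5, 71.2 and 57.0 CPM in GFP+ libraries, against 13.1, 21.5 and 11.03 CPM in GFP- libraries (log2FC 2.01 ± 0.35, padj = 0.00199), opposite in direction to CLDN5. *podxl*, which encodes the sialomucin podocalyxin and is also on the epicardium list, had 585, 798 and 448 CPM in GFP+ libraries, against 93.9, 261 and 164 CPM in GFP- libraries (log2FC 1.82 ± 0.39, padj = 0.00666). *jag1b*, a Notch ligand, had 39.0, 34.0 and 59.5 CPM in GFP+ libraries, against 10.9, 24.3 and 23.4 CPM in GFP- libraries. It was 2.25-fold higher in GFP+ cells (padj = 0.0479), and its call was lost without replicate 1 of GFP- (log2FC 0.91, padj = 0.0791).

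Of 34 genes of epithelial-to-mesenchymal transition and cushion mesenchyme, 10 were higher in GFP+ cells (29.4%, against 6.22% of all genes) and 2 were lower (5.88%, against 10.8%). The median log2FC was 0.80, and without replicate 1 of GFP- the counts were 11 and 1, with a median of 0.70. *snai2*, a zinc finger repressor of epithelial adhesion, had 869, 1315 and 863 CPM in GFP+ libraries, against 77.2, 127 and 102 CPM in GFP- libraries (log2FC 3.31 ± 0.36, padj = 0.000103). *tgfb2*, the TGF-beta ligand of cushion formation, had 17.4, 37.8 and 28.0 CPM in GFP+ libraries, against 1.44, 3.38 and 3.10 CPM in GFP- libraries (log2FC 3.36 ± 0.49, padj = 0.000617). *cdh11*, a cadherin of mesenchyme, had 197, 201 and 224 CPM in GFP+ libraries, against 14.3, 52.0 and 49.5 CPM in GFP- libraries (log2FC 2.42 ± 0.43, padj = 0.00195). Each of them was higher in every GFP+ library than in any GFP- library, by a wide margin. The inhibitory Smads *smad6a* and *smad6b* had log2FC of 1.84 and 1.93 (padj = 0.00338 and 0.00549).

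*twist1b*, a bHLH factor of cushion mesenchyme, had 87.6, 73.9 and 66.6 CPM in GFP+ libraries, against 42.8, 17.2 and 9.19 CPM in GFP- libraries (log2FC 1.73 ± 0.52, padj = 0.0386), and its paralog *twist1a*, with 141, 130.4 and 70.3 CPM in GFP+ libraries, against 91.8, 26.3 and 17.5 CPM in GFP- libraries, was called without replicate 1 of GFP- (log2FC 2.398, padj = 0.00143) and with replicate number as a block (padj = 0.0132). In both, replicate 1 was the highest GFP- library. *vim*, *cdh2*, *sox9a* and *prss23* also rose, with log2FC between 1.204 and 1.57. *snai1b*, the zinc finger repressor of the zebrafish AVC, had 22.0, 20.0 and 28.0 CPM in GFP+ libraries, against 23.4, 20.5 and 21.9 CPM in GFP- libraries (log2FC 0.09 ± 0.25, padj = 0.825), and the groups overlapped. *tgfb1b*, another TGF-beta ligand, and *foxf1*, a forkhead factor of visceral mesenchyme, were lower, with 2.88, 3.24 and 2.10 CPM in GFP+ libraries, against 6.10, 17.2 and 8.75 CPM in GFP- libraries for *tgfb1b* (log2FC -1.96 ± 0.40, padj = 0.00470). *foxf1* had 49.8, 17.9 and 68.6 CPM in GFP+ libraries, against 182, 103 and 98.6 CPM in GFP- libraries (log2FC -1.49 ± 0.46, padj = 0.0399) and lost its call without replicate 1 of GFP- (log2FC -1.13, padj = 0.0934).

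The valve matrix list of 45 genes had 15 higher in GFP+ cells (33.3%, against 6.22% of all genes) and 3 lower (6.67%, against 10.8%). The median log2FC was 0.79, and without replicate 1 of GFP- the counts were 14 and 5, with a median of 0.65. The median was 0.47 when replicate 1 of GFP+ was left out. The members higher were 9 without replicate 2 or 3 of GFP+, those lower were 1 without replicate 1 or 2 of GFP+ and 6 without replicate 3, and with replicate number as a block 6 genes were lower instead of 3. *postnb*, periostin, a matrix protein of valves and outflow tract, had 673, 637 and 458 CPM in GFP+ libraries, against 45.1, 53.6 and 46.5 CPM in GFP- libraries (log2FC 3.61 ± 0.30, padj = 4.1e-05). *col12a1a*, a collagen associated with fibrils, had 289, 353 and 392 CPM in GFP+ libraries, against 26.9, 37.9 and 46.0 CPM in GFP- libraries (log2FC 3.22 ± 0.33, padj = 7.82e-05). *acana*, the proteoglycan aggrecan, had 109, 165 and 156 CPM in GFP+ libraries, against 6.52, 13.1 and 11.03 CPM in GFP- libraries (log2FC 3.80 ± 0.71, padj = 0.00270). These groups were far apart, with every GFP- library below every GFP+ library. *acana* is also a cartilage marker, and over the 13 cartilage and pharyngeal arch markers the summed level was 310.2 to 616 CPM in GFP+ libraries and 256 to 469 CPM in GFP- libraries, with *acana* and *sox9a* the only members called. *col2a1a*, the defining collagen of cartilage, had 86.8, 30.9 and 144 CPM in GFP+ libraries, against 21.5, 85.7 and 110.2 CPM in GFP- libraries (log2FC 0.26 ± 0.63, padj = 0.800).

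*lum*, a small leucine-rich proteoglycan, had 61.1, 71.9 and 51.5 CPM in GFP+ libraries, against 11.3, 11.7 and 12.02 CPM in GFP- libraries (log2FC 2.399 ± 0.31, padj = 0.000313). *cthrc1a*, which encodes a secreted collagen triple helix protein, had 748, 742 and 436 CPM in GFP+ libraries, against 223, 87.9 and 41.1 CPM in GFP- libraries (log2FC 2.45 ± 0.51, padj = 0.00543), with replicate 1 the highest of the GFP- libraries. The fibronectins *fn1a* and *fn1b* rose by 1.98 and 1.92 (padj = 0.0153 and 0.00475), the hyaluronan synthase *has1* by 1.83 (padj = 0.0252), and the matrix metalloproteinases *mmp2* and *mmp14a* by 1.57 and 1.96 (padj = 0.0139 and 0.00335).

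The versican gene *vcana* was not called, and a link protein and the protease ADAMTS5 were lower. Another ADAMTS protease of the list, *adamts9*, was called higher in GFP+ cells, a call lost without replicate 1 of GFP-. *vcana*, versican, had 7.82, 3.30 and 10.4 CPM in GFP+ libraries, against 7.79, 18.3 and 13.2 CPM in GFP- libraries (log2FC -0.87 ± 0.53, padj = 0.279), with overlap of the groups. HAPLN1, the link protein that joins hyaluronan and proteoglycans, had 79.1, 96.6 and 175 CPM in GFP+ libraries, against 249, 530.3 and 387 CPM in GFP- libraries (log2FC -1.73 ± 0.48, padj = 0.0256), lower in every GFP+ library. ADAMTS5, a protease that cleaves versican and aggrecan, had 0.416, 0.326 and 0.672 CPM in GFP+ libraries, against 2.20, 2.57 and 2.52 CPM in GFP- libraries (log2FC -2.398 ± 0.65, padj = 0.0233), and the collagen *col5a3a* had 0.634, 0.307 and 0.198 CPM in GFP+ libraries, against 4.57, 3.18 and 1.70 CPM in GFP- libraries (log2FC -2.98 ± 0.51, padj = 0.00159). The fibrillar collagens of type 1, *col1a1a*, *col1a2* and COL1A1, were not called, with log2FC of -0.40, 0.79 and 0.02.

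**Figure D2:**
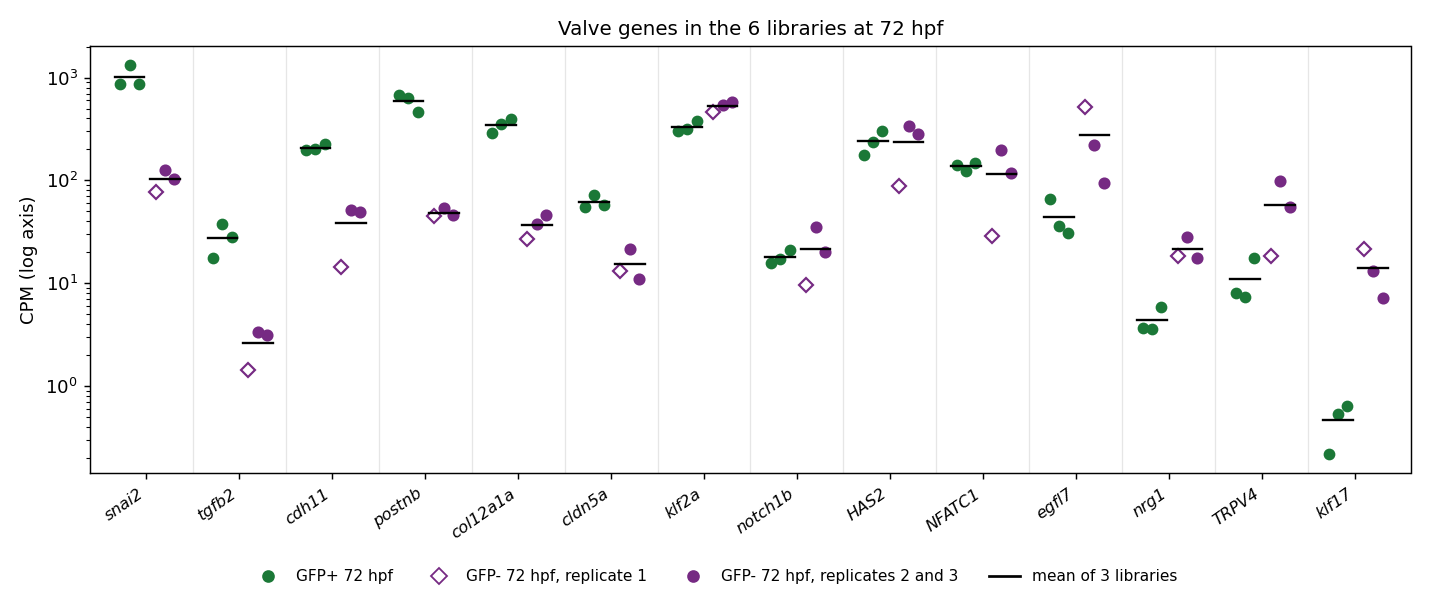
Level (CPM, log axis) of 14 genes of the valve lists in the 6 libraries at 72 hpf, drawn as GFP+ on the left of each pair, replicate 1 of GFP- as an open diamond and the mean of 3 libraries as a black line. The mesenchyme and matrix genes *snai2*, *tgfb2*, *cdh11*, *postnb* and *col12a1a* are higher in every GFP+ library. Of the valve endocardium list, *egfl7*, *nrg1*, TRPV4 and *klf17*, the last also a gene of early red blood cells, are lower, and *notch1b*, HAS2 and NFATC1 overlap.

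The elastic fibre list held the largest rises of the 3 outflow tract lists. Of 30 genes tested of 31, 11 were higher in GFP+ cells and none was lower, against 6.22% and 10.8% of all genes. The median log2FC was 0.86. Without replicate 1 of GFP-, 12 of 31 were higher and none was lower, with a median of 0.57. The summed level of the list was 13976 to 17288 CPM in GFP+ libraries and 2850.1 to 3057 CPM in GFP- libraries. *fbln5*, fibulin 5, which organises elastin on microfibrils, had 5839, 5729.8 and 4211 CPM in GFP+ libraries, against 251, 366 and 235 CPM in GFP- libraries (log2FC 4.21 ± 0.38, padj = 4.13e-05). *loxa*, a lysyl oxidase that crosslinks elastin and collagen, had 3987, 4695 and 2736 CPM in GFP+ libraries, against 260.1, 201 and 116 CPM in GFP- libraries (log2FC 4.31 ± 0.63, padj = 0.000616). These genes were 18.5-fold and 19.8-fold higher in GFP+ cells. *elnb*, the elastin gene of the zebrafish BA, had 132, 156 and 159 CPM in GFP+ libraries, against 8.13, 10.6 and 7.46 CPM in GFP- libraries (log2FC 4.09 ± 0.37, padj = 4.37e-05). The 3 libraries of each fraction were close together in *elnb*, and the fractions were far apart.

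Other genes of the list rose too. *htra1a*, a secreted serine protease, had 580.4, 634 and 349.7 CPM in GFP+ libraries, against 33.4, 34.3 and 17.7 CPM in GFP- libraries (log2FC 4.195 ± 0.37, padj = 4.13e-05), and its paralog *htra1b* had a log2FC of 2.23 (padj = 0.000423). *loxl1*, a lysyl oxidase-like enzyme, had 328, 1009 and 917 CPM in GFP+ libraries, against 25.2, 68.2 and 91.0 CPM in GFP- libraries (log2FC 3.61 ± 0.57, padj = 0.000969). *ltbp3*, which binds latent TGF-beta to the matrix, had 1193, 1543 and 1609 CPM in GFP+ libraries, against 63.5, 222 and 148 CPM in GFP- libraries (log2FC 3.32 ± 0.54, padj = 0.00122). In *loxl1* and *ltbp3* replicate 1 was the lowest GFP- library, and the groups did not overlap with or without it. *fbln2*, the emilins *emilin1a* and *emilin1b*, and *loxl2b* also rose, with log2FC of 2.03, 1.49, 2.47 and 1.99. *mfap5*, a microfibril protein, had 90.4, 82.3 and 43.6 CPM in GFP+ libraries, against 53.4, 9.96 and 6.88 CPM in GFP- libraries. Replicate 1 of GFP- overlapped the GFP+ libraries, and the gene was called without it (log2FC 3.12, padj = 0.000157) and with replicate number as a block (padj = 0.0122).

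Not all genes of the list rose. Of the 19 not called, the log2FC ran from -1.96 to 2.26, with *fbn2b*, a fibrillin, at 2.26 (padj = 0.0605, and 0.00473 with the block) and *loxl5a* at -1.96 (padj = 0.218). *elna*, the other elastin gene, was not analysed here.

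Outflow tract smooth muscle was split. Of 40 genes, 10 were higher in GFP+ cells (25%, against 6.22% of all genes) and 1 was lower (2.5%, against 10.8%). The median log2FC was 0.01, close to the median of all genes. Without replicate 1 of GFP- there were 13 higher and none lower, with a median of 0.34. *mylka*, the myosin light chain kinase of smooth muscle, had 245, 316 and 342 CPM in GFP+ libraries, against 35.9, 84.1 and 83.2 CPM in GFP- libraries (log2FC 2.15 ± 0.37, padj = 0.00172). *tpm4b*, a tropomyosin, had 823, 1135 and 705 CPM in GFP+ libraries, against 196, 183 and 188 CPM in GFP- libraries (log2FC 2.23 ± 0.26, padj = 0.000161). Their groups did not overlap, and the 3 GFP- libraries of *tpm4b* were nearly equal. The mural cell receptors *notch3* and *pdgfrb* rose too. *notch3* had 88.5, 104 and 146 CPM in GFP+ libraries, against 20.4, 27.8 and 34.9 CPM in GFP- libraries (log2FC 2.03 ± 0.32, padj = 0.00110), and *pdgfrb* had 143, 297 and 231 CPM in GFP+ libraries, against 56.2, 62.7 and 87.8 CPM in GFP- libraries (log2FC 1.70 ± 0.31, padj = 0.00223).

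*rgs5a*, a mural cell regulator of G protein signalling, had 238, 369 and 228 CPM in GFP+ libraries, against 137, 50.9 and 49.8 CPM in GFP- libraries (log2FC 1.81 ± 0.44, padj = 0.0123). *mrtfbb* and *srfa*, which encode a coactivator and a transcription factor of smooth muscle genes, had log2FC of 1.82 and 1.70 (padj = 0.00435 and 0.0133). *lmod1a*, *myl9b* and *smtnl*, of the contractile apparatus, had log2FC of 1.78, 1.32 and 1.75.

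The smooth muscle markers *acta2* and *tagln* were not called. *acta2*, smooth muscle actin, had 1198, 710.5 and 1242 CPM in GFP+ libraries, against 1619, 1372 and 978 CPM in GFP- libraries (log2FC -0.33 ± 0.42, padj = 0.615). Replicate 3 of GFP- lay within the range of the GFP+ libraries and the other GFP- libraries lay above it. *tagln*, transgelin, had 234, 98.3 and 160.5 CPM in GFP+ libraries, against 1179, 240.0 and 143 CPM in GFP- libraries (log2FC -1.66 ± 0.67, padj = 0.113). Its replicate 1 of GFP- was far above the other 5 libraries, and without it the log2FC was -0.20 (padj = 0.784). *myl6*, a light chain of smooth and non-muscle myosin, showed the same library as the highest, with 554, 473 and 331 CPM in GFP+ libraries, against 1397, 305 and 178 CPM in GFP- libraries, and was called higher in GFP+ cells without it (log2FC 0.92, padj = 0.0353) and not with it. Without replicate 3 of GFP- 4 members of the list were lower. The 1 gene lower was *foxf1*, described above.

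**Figure D3:**
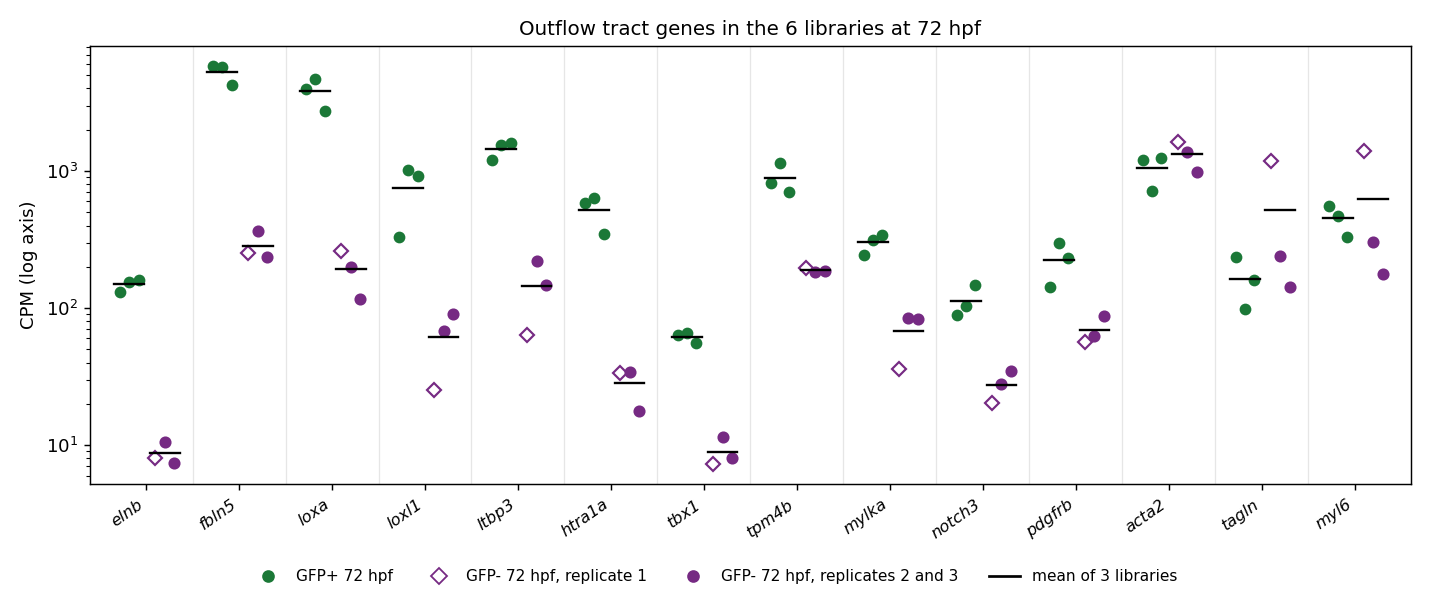
Level (CPM, log axis) of 14 outflow tract genes in the 6 libraries at 72 hpf, with GFP+ on the left of each pair, replicate 1 of GFP- as an open diamond and the mean of 3 libraries as a black line. The elastic fibre genes, *tbx1*, *tpm4b*, *mylka*, *notch3* and *pdgfrb* are higher in every GFP+ library, while *acta2* overlaps and replicate 1 of GFP- is the highest library for *tagln* and *myl6*.

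In the list of second heart field and outflow factors, 15 of 34 genes were higher in GFP+ cells (44.1%, against 6.22% of all genes) and 5 were lower (14.7%, against 10.8%). The share of falls is thus not far from that of all genes. The median log2FC was 0.82, and without replicate 1 of GFP- the counts were 16 and 5, with a median of 0.58. Without replicate 1 or 2 of GFP+, or replicate 2 of GFP-, 2 genes were lower. *tbx1*, the T-box factor of the pharyngeal second heart field, had 63.1, 66.3 and 55.3 CPM in GFP+ libraries, against 7.28, 11.5 and 8.001 CPM in GFP- libraries (log2FC 2.78 ± 0.27, padj = 6.36e-05). The transcriptional coactivator *eya2* had 98.1, 87.2 and 75.0 CPM in GFP+ libraries, against 12.9, 17.9 and 12.2 CPM in GFP- libraries (log2FC 2.60 ± 0.34, padj = 0.000339), and *gdf6a*, a ligand of the BMP family, had 53.7, 63.1 and 38.3 CPM in GFP+ libraries, against 7.20, 12.4 and 8.44 CPM in GFP- libraries (log2FC 2.46 ± 0.34, padj = 0.000412). All 3 were higher in every GFP+ library, with GFP- libraries at or under 17.9 CPM. *gli2a*, an effector of hedgehog signalling, had 186, 233 and 272 CPM in GFP+ libraries, against 20.9, 55.9 and 55.7 CPM in GFP- libraries (log2FC 2.38 ± 0.41, padj = 0.00167), and *nrp1a*, a receptor for semaphorins and VEGF, had 404, 242 and 359 CPM in GFP+ libraries, against 31.3, 101 and 70.3 CPM in GFP- libraries (log2FC 2.31 ± 0.42, padj = 0.00223). The endothelin receptors *ednraa* and *ednrab*, the ephrin *efnb2a*, the FGF receptors *fgfr1a* and *fgfr3*, *hoxb3a*, *ebf3a*, *gli3*, *six5* and *gata3* rose as well, with log2FC between 1.06 and 2.10.

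The 5 genes lower in GFP+ cells were LIM and NK homeobox factors and 2 ligands. Of the genes named ISL2, LIM homeobox factors of motor neurons as well, one (ENSDARG00000053499) had 11.99, 2.84 and 14.0 CPM in GFP+ libraries, against 69.0, 24.7 and 30.7 CPM in GFP- libraries (log2FC -2.11 ± 0.52, padj = 0.0139) and the other (ENSDARG00000003971) a log2FC of -1.49 (padj = 0.00650). *nkx2.3*, an NK factor of pharyngeal endoderm and gut mesoderm, had 10.01, 8.35 and 26.3 CPM in GFP+ libraries, against 56.1, 43.9 and 34.97 CPM in GFP- libraries (log2FC -1.60 ± 0.48, padj = 0.0361) and lost its call without replicate 1 of GFP- (log2FC -1.39, padj = 0.0655). *fgf10a*, an FGF ligand, had 16.4, 12.3 and 33.8 CPM in GFP+ libraries, against 53.5, 49.6 and 52.3 CPM in GFP- libraries (log2FC -1.32 ± 0.38, padj = 0.0319). *edn2*, an endothelin ligand, had 37.1, 52.4 and 70.1 CPM in GFP+ libraries, against 118, 119 and 137 CPM in GFP- libraries (log2FC -1.23 ± 0.38, padj = 0.0422), while the receptor *ednraa* had 424, 422 and 407 CPM in GFP+ libraries, against 101, 137 and 96.3 CPM in GFP- libraries (log2FC 1.91 ± 0.32, padj = 0.00143). *nkx2.7*, the NK factor of zebrafish heart muscle, had 2.61, 2.86 and 1.62 CPM in GFP+ libraries, against 3.47, 0.501 and 0.511 CPM in GFP- libraries, with replicate 1 of GFP- the highest of the 6 libraries, and was called without it (log2FC 2.25, padj = 0.0324) and not with it. Motor neuron and retina factors stand beside a summed neuron marker level that was lower in every GFP+ library, as given above, and its part in the falls of *isl1* and ISL2 was not tested.

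Of 32 genes of the Wnt list, 7 were higher in GFP+ cells (21.9%, against 6.22% of all genes) and 4 lower (12.5%, near the 10.8% of all genes), with a median log2FC of 0.18, and without replicate 1 of GFP- 8 were higher and 1 was lower, with a median of 0.16. Without replicate 1 or 2 of GFP+ 4 were higher, and without replicate 3 of GFP- the median was 0.36. The genes higher were 5 Frizzled receptors and 2 secreted inhibitors. The Frizzled genes of the list are ones the paper reports as enriched in GFP+ cells of these data at either or both stages. Their rises are therefore a description. *fzd9a* had 27.7, 29.97 and 17.5 CPM in GFP+ libraries, against 2.63, 4.12 and 2.28 CPM in GFP- libraries (log2FC 3.05 ± 0.51, padj = 0.00144), *fzd8a* had 232, 167 and 155 CPM in GFP+ libraries, against 27.9, 41.0 and 38.7 CPM in GFP- libraries (log2FC 2.36 ± 0.27, padj = 0.000139) and *fzd10* had 129, 136 and 88.1 CPM in GFP+ libraries, against 15.08, 39.1 and 23.4 CPM in GFP- libraries (log2FC 2.18 ± 0.40, padj = 0.00257). *fzd7a* and *fzd7b* rose by 1.12 and 1.12. Their groups did not overlap. *sfrp2* and *sfrp5*, secreted proteins that bind Wnt ligands, had log2FC of 1.84 and 1.18 (padj = 0.00414 and 0.0167).

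The 4 genes lower were Wnt ligands, of which only *wnt4* kept its call without replicate 1 of GFP-. *wnt5a* had 2.73, 1.42 and 3.96 CPM in GFP+ libraries, against 24.2, 8.24 and 8.001 CPM in GFP- libraries (log2FC -2.32 ± 0.64, padj = 0.0258) and *wnt2* had 2.698, 0.576 and 3.52 CPM in GFP+ libraries, against 19.3, 6.06 and 7.18 CPM in GFP- libraries (log2FC -2.26 ± 0.59, padj = 0.0181). In both replicate 1 was the highest GFP- library, and without it the calls of *wnt5a*, *wnt2* and *wnt9a* were lost (padj = 0.0868, 0.0501 and 0.143). *wnt4* had 1.81, 2.21 and 2.69 CPM in GFP+ libraries, against 4.40, 5.95 and 4.32 CPM in GFP- libraries (log2FC -1.14 ± 0.31, padj = 0.0239). The target genes of the canonical pathway in the list, *lef1*, AXIN2 and NKD1, were not called, with log2FC of 0.19, 0.46 and 0.05.

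Of 31 BMP genes tested of 32, 8 were higher in GFP+ cells (25.8%, against 6.22% of all genes) and 5 lower (16.1%, against 10.8%). The share of falls is thus not far from that of all genes. The median log2FC was 0.46, and without replicate 1 of GFP- the counts were 11 and 5 of 32, with a median of 0.36. Without replicate 1 or 2 of GFP+ 5 were higher and 3 lower. Among the ligands, *gdf10a* had 109, 107 and 106 CPM in GFP+ libraries, against 17.1, 33.5 and 27.0 CPM in GFP- libraries (log2FC 2.05 ± 0.32, padj = 0.00085) and *bmp7b* had 32.4, 32.5 and 26.3 CPM in GFP+ libraries, against 12.3, 11.5 and 9.67 CPM in GFP- libraries (log2FC 1.45 ± 0.30, padj = 0.00474). Other ligands were lower. *bmp10*, a BMP of heart trabeculae, had 0.761, 0.921 and 2.02 CPM in GFP+ libraries, against 11.3, 19.01 and 9.98 CPM in GFP- libraries (log2FC -3.48 ± 0.64, padj = 0.00247). *bmp2a* and *bmp16* had log2FC of -1.43 and -1.25 (padj = 0.00918 and 0.0285), so that with *bmp4* the ligands that were called moved in both directions.

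Several secreted BMP antagonists and modulators were higher. *nog2*, a noggin, had 39.5, 34.6 and 30.9 CPM in GFP+ libraries, against 9.23, 8.90 and 8.34 CPM in GFP- libraries (log2FC 1.99 ± 0.29, padj = 0.000567), and *bmper*, a secreted modulator of BMP, had 24.2, 16.9 and 13.7 CPM in GFP+ libraries, against 3.98, 6.34 and 5.07 CPM in GFP- libraries (log2FC 1.82 ± 0.39, padj = 0.00611). 2 genes carry the name *grem1a*, a gremlin. One (ENSDARG00000090720) had 50.9, 52.8 and 44.3 CPM in GFP+ libraries, against 18.8, 15.6 and 6.13 CPM in GFP- libraries (log2FC 1.87 ± 0.57, padj = 0.0379), and the other (ENSDARG00000029546) a log2FC of 1.43 (padj = 0.0152). The signal-transducing Smads *smad1* and *smad9* rose by 1.096 and 1.32 (padj = 0.0149 and 0.0152).

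The Id genes, targets of BMP signals that encode inhibitors of bHLH factors, differed among themselves. *id2b* had 67.8, 77.9 and 93.8 CPM in GFP+ libraries, against 2658, 723 and 422 CPM in GFP- libraries (log2FC -3.99 ± 0.68, padj = 0.00168), lower in every GFP+ library and highest in replicate 1 of GFP-, and it was called without that library too (log2FC -2.82, padj = 0.000917). ID1 had 459, 367 and 223 CPM in GFP+ libraries, against 1032, 180.2 and 146 CPM in GFP- libraries, with replicate 1 of GFP- the highest of all. It had a log2FC of -0.37 with that library and was called higher without it (log2FC 1.12, padj = 0.0231). ID3, with 369.6, 471 and 261 CPM in GFP+ libraries, against 358, 147 and 109 CPM in GFP- libraries, was also called higher without it (log2FC 1.54, padj = 0.00137) and not with it.

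Of 16 genes of the Notch list, 5 were lower in GFP+ cells (31.3%, against 10.8% of all genes) and 1 was higher (6.25%, against 6.22%), with a median log2FC of -0.39, and 7 and 1 without replicate 1 of GFP-, with a median of -0.49. The median was -0.096 without replicate 2 of GFP- and -0.038 without replicate 3. With replicate number as a block 4 were higher instead of 1, and without replicate 1 or 2 of GFP+ 3 were lower. *notch2* had 120.1, 171 and 227 CPM in GFP+ libraries, against 45.5, 63.7 and 65.9 CPM in GFP- libraries (log2FC 1.56 ± 0.36, padj = 0.00918), and every GFP+ library was above every GFP- library. The ligands *dla* and *dlb*, known from neurogenesis, had 2.68, 3.86 and 4.39 CPM in GFP+ libraries, against 6.78, 18.2 and 24.3 CPM in GFP- libraries for *dla* (log2FC -2.18 ± 0.41, padj = 0.00304) and 4.38, 5.95 and 5.38 CPM in GFP+ libraries, against 9.83, 14.8 and 23.0 CPM in GFP- libraries for *dlb* (log2FC -1.60 ± 0.37, padj = 0.00999). *her15.1*, a target of Notch in neural progenitors, had 10.7, 11.6 and 22.9 CPM in GFP+ libraries, against 148, 41.5 and 81.7 CPM in GFP- libraries (log2FC -2.58 ± 0.64, padj = 0.0142). *lfng*, a glycosyltransferase that modifies Notch, had 31.9, 37.2 and 52.0 CPM in GFP+ libraries, against 83.9, 246 and 205 CPM in GFP- libraries (log2FC -2.14 ± 0.39, padj = 0.00223). These were lower in every GFP+ library. The receptor *notch1a* had 28.3, 21.0 and 37.9 CPM in GFP+ libraries, against 35.2, 105 and 89.1 CPM in GFP- libraries (log2FC -1.40 ± 0.41, padj = 0.0331), and its lowest GFP- library, replicate 1, overlapped the GFP+ libraries. The neuron markers, given above, were lower in GFP+ cells as well, and their part in these falls was not tested.

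**Figure D4:**
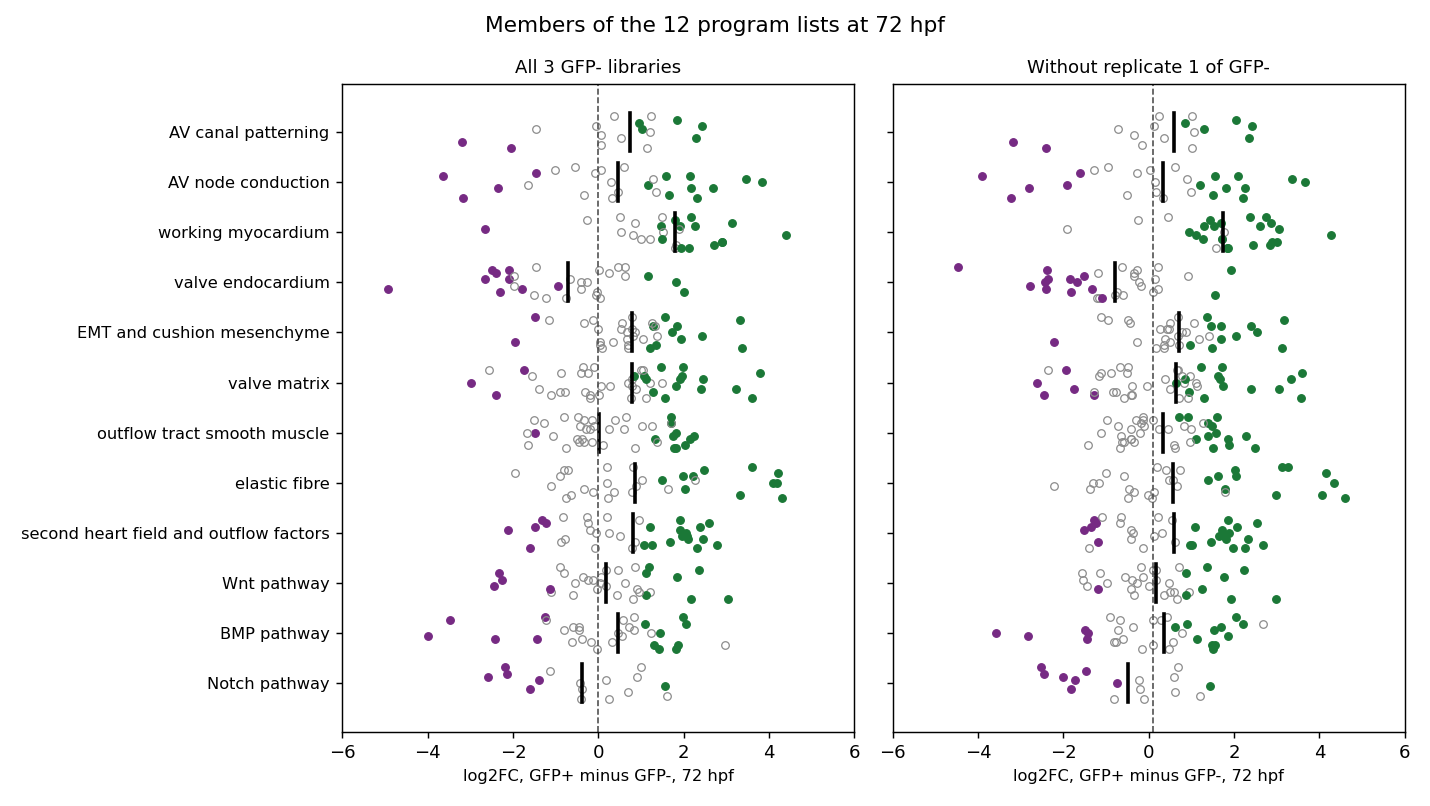
The log2FC (GFP+ minus GFP- at 72 hpf, x axis) of the tested members of the 12 program lists, with all 3 GFP- libraries on the left and without replicate 1 of GFP- on the right. Filled points passed padj below 0.05 (green higher, purple lower in GFP+ cells), black bars are list medians and the dashed line is the median of all genes. Working myocardium has the highest median in both panels, at 1.80 and 1.74, and valve endocardium the lowest, at -0.72 and -0.78.

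Across the 12 program lists, 356 different genes were tested, of which 107 (30.1%) were higher in GFP+ cells and 40 (11.2%) lower, beside 6.22% and 10.8% of all genes. The share of falls was thus near that of all genes. Several lists hold genes that the paper names as enriched in GFP+ cells of these same data, so the shares higher are a description. The counts were 122 and 43 without replicate 1 of GFP-. Of these, 137 were called in both fits, 10 lost their call without that library and 28 gained one. Those that lost it included *adamts9* (padj = 0.0518 with the block), *fmoda*, *foxf1*, *jag1b*, *myl4*, *nkx2.3*, *wnt2*, *wnt5a* and *wnt9a*. The genes that gained it included *myl7*, *tnnt2a*, *nkx2.5*, *hand2*, *klf2b*, *cdh5*, *twist1a*, *mfap5*, *myl6*, ID1 and ID3. The elastic fibre list was the steadiest, with 11 or 12 members higher and none lower whichever of the 6 libraries was left out. Among the genes named by the rule, the calls of *msx1b*, *tbx3a*, *kcnq1.1*, *shox2*, *myh7*, *myh7l*, *nppa*, *twist1b*, TRPV4, ADAMTS5, HAPLN1, *rgs5a*, *fgf10a*, *edn2*, *sfrp5*, *wnt4*, *grem1a* (ENSDARG00000090720), *bmp16*, *her15.1* and *notch1a* were each lost when some 1 of the other 5 libraries was left out. Genes given by name outside the rule were not followed singly in this way, and the list counts show that calls were lost among them too. Without replicate 1 of GFP+, members higher were 4 in Wnt instead of 7, and members lower 6 in valve endocardium instead of 9. Without replicate 3 of GFP-, members higher were 7 in mesenchyme instead of 10.

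Markers of other cell types were present in both fractions, in different lists. The counts of markers called stand beside 6.22% of all genes higher and 10.8% lower in GFP+ cells. Of 13 erythroid markers 12 were lower in GFP+ cells and none was higher, and their summed level was 62.8 to 100.7 CPM in GFP+ libraries and 5873 to 56897 CPM in GFP- libraries, highest in replicate 1. *alas2*, the enzyme of heme synthesis in red cells, had 0.453, 0.710 and 0.791 CPM in GFP+ libraries, against 147, 161 and 158 CPM in GFP- libraries. Of 10 leukocyte markers tested of 12, 9 were lower and none was higher (4.799 to 23.1 CPM summed in GFP+ libraries and 90.8 to 492 CPM in GFP- libraries), with RAG1 at or under 3 counts in every GFP+ library. Of 15 skeletal muscle markers tested of 17, 6 were lower and 1 was higher (138 to 193 CPM in GFP+ libraries and 143 to 328 CPM in GFP- libraries), and 2 or 3 were lower without any 1 of the GFP+ libraries.

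Of 17 epidermis markers 8 rose (11 without replicate 1 of GFP-) and none fell, against 6.22% and 10.8% of all genes. Their summed level was 2820.5 to 3533 CPM in GFP+ libraries and 856 to 3804 CPM in GFP- libraries, and replicate 1 of GFP- was the highest of the 6 libraries. *krt4*, the keratin gene from which the basic promoter of the transgene was taken, had 761.6, 1429 and 1171 CPM in GFP+ libraries, against 143, 173 and 107 CPM in GFP- libraries (log2FC 2.99 ± 0.45, padj = 0.000777). *epcam*, an adhesion molecule of epithelia, had 286, 278 and 186 CPM in GFP+ libraries, against 144, 65.0 and 34.9 CPM in GFP- libraries (log2FC 1.62 ± 0.47, padj = 0.0324), and *tp63*, the defining factor of basal epidermis, had 9.89, 20.6 and 17.1 CPM in GFP+ libraries, against 4.83, 12.8 and 10.9 CPM in GFP- libraries (log2FC 0.73 ± 0.36, padj = 0.191, and 0.0413 with replicate number as a block). The part of epidermal cells in the rise of *krtt1c19e* was not tested. The 15 liver markers gave no call in either direction, and replicate 1 of GFP- was the highest library (3093 to 3916 CPM summed in GFP+ libraries and 2352 to 6378 CPM in GFP- libraries). The 15 pancreas and gut markers, of which 1 was higher and 3 were lower, summed to 263 to 599 CPM in GFP+ libraries and 173 to 4869.9 CPM in GFP- libraries, with replicate 1 the highest. Without that library 2 were higher and 1 was lower, and the median log2FC was 0.10, against -2.78 with it, while without replicate 3 of GFP- 8 were lower. Of 13 neural crest and pigment markers tested of 15, 2 were higher (1 without replicate 1 of GFP-) and 1 was lower, with 135 to 258 CPM summed in GFP+ libraries and 90.2 to 229 CPM in GFP- libraries, and no library of either group held more than 3 counts of MITF.

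**Figure D5:**
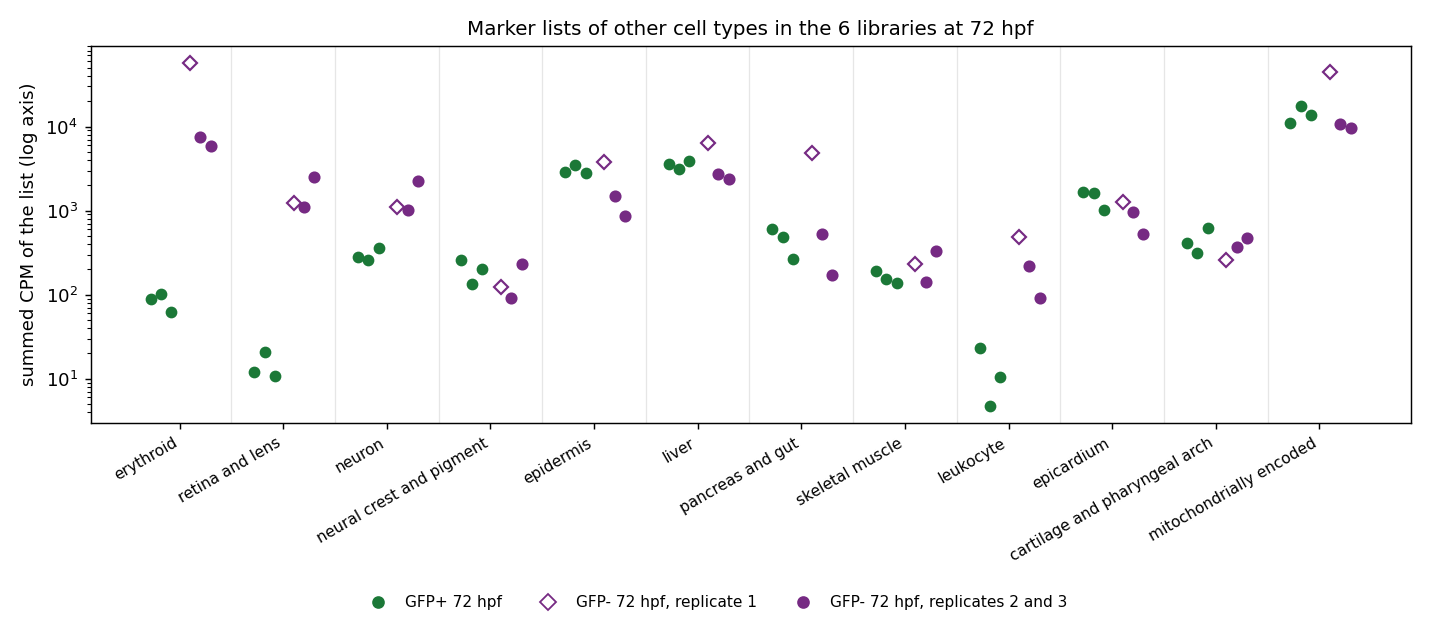
Summed level (CPM, log axis) of 11 marker lists of other cell types and of the mitochondrially encoded genes in the 6 libraries at 72 hpf, GFP+ on the left of each pair and replicate 1 of GFP- as an open diamond. Erythroid, retina, neuron and leukocyte markers are lower in every GFP+ library, and replicate 1 of GFP- is the highest library for the erythroid, leukocyte, epidermis, liver, pancreas and mitochondrial sums.

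The differences at 72 hpf were then set against those at 48 hpf by a test of the change in log2FC between the stages. Over all genes, 573 of 23222 (2.47%) had a larger and 1324 (5.70%) a smaller log2FC at 72 hpf. Some outflow tract genes were among those whose log2FC was larger at 72 hpf, and others showed no called change or a smaller log2FC. *fbln5* averaged 43.8 CPM in GFP+ and 9.87 CPM in GFP- at 48 hpf and 5260.1 CPM in GFP+ and 284 CPM in GFP- at 72 hpf, a change in log2FC of 2.06 (padj = 0.0207). *htra1a* changed by 1.83 (padj = 0.0384) and *tpm4b* by 1.75 (padj = 0.0123). *notch3* averaged 67.6 CPM in GFP+ and 174 CPM in GFP- at 48 hpf and 113 CPM in GFP+ and 27.7 CPM in GFP- at 72 hpf, so that its sign turned, with a change of 3.39 (padj = 0.00238). *elnb* averaged 0.0353 CPM in GFP+ and 0.00857 CPM in GFP- at 48 hpf and 149 CPM in GFP+ and 8.71 CPM in GFP- at 72 hpf. Its change of 2.404 was not called (padj = 0.505), and the gene was near 0 in both fractions at 48 hpf. No change was called either for, among others, *loxa*, *loxl1*, *ltbp3*, *mylka*, *pdgfrb* and *tbx1* (padj = 0.915, 0.0727, 0.0547, 0.0857, 0.503 and 0.596). Of the outflow tract lists, *foxf1*, *nkx2.3* and *fgf10a* had a smaller log2FC at 72 hpf, with changes of -2.96, -3.61 and -2.99 (padj = 0.0160, 0.00870 and 0.00773).

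The smooth muscle markers *acta2* and *tagln* also had a smaller log2FC at 72 hpf. *acta2* averaged 52.9 CPM in GFP+ and 1.95 CPM in GFP- at 48 hpf and 1050.2 CPM in GFP+ and 1323 CPM in GFP- at 72 hpf, a change of -5.09 (padj = 0.00177), and *tagln* 3.61 CPM in GFP+ and 0.116 CPM in GFP- at 48 hpf and 164 CPM in GFP+ and 521 CPM in GFP- at 72 hpf, a change of -6.60 (padj = 0.00562). For both genes the means at 72 hpf were above those at 48 hpf in both fractions, a difference between stages that was not itself tested. Of the heart muscle genes named, *myl7* and *myl4* changed. *myl7* averaged 898 CPM in GFP+ and 18.3 CPM in GFP- at 48 hpf and 582 CPM in GFP+ and 165 CPM in GFP- at 72 hpf, a change of -3.79 (padj = 0.0322), and *myl4* changed by -3.67 (padj = 0.0478). The AVC genes *tbx20*, *hey1*, *hey2* and *bmp4* showed no called change (padj = 0.114, 0.414, 0.499 and 0.0517). *wnt2bb*, of the same list, changed by -2.87 (padj = 0.0120). Of the valve endocardium genes, *egfl7* and *klf17* changed by -3.43 and -3.74 (padj = 0.0197 and 0.00846), and *cldn5a* turned from lower to higher in GFP+ cells, with a change of 3.69 (padj = 0.00240). The changes of *fbln5* and *htra1a* were not called without replicate 1 or 2 of GFP+, that of *myl7* without any 1 of the GFP+ libraries, that of *egfl7* without replicate 2 or 3 of GFP+, and that of *myl4* without any 1 of replicates 1 and 3 of GFP+ and 1 and 2 of GFP-. Those of *notch3*, *tpm4b*, *acta2*, *tagln*, *klf17* and *cldn5a* were called whichever of the 6 libraries at 72 hpf was left out. No fit left out a single library at 48 hpf, so the dependence of these changes on those libraries was not tested.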

How the data were processed

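Hearts were obtained from *sqet31Et* embryos by bulk extraction, fluorescent ones were picked by hand and pooled, the dissociated cells were separated by GFP fluorescence, and 12 libraries of poly-A RNA were sequenced, 3 per fraction and stage. Per the labels and the methods, the authors trimmed reads with cutadapt 1.17 and quantified them on GRCz11 by Salmon 0.9.1. The deposited files hold raw counts, 1 whole number for each Ensembl gene in each library. How transcript estimates were summed to genes is not given in the sources used here, so counts of near-identical genes are uncertain. Whether strand was used in counting is not given in the sources used here either, and overlapping genes on opposite strands were not separated.

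Tests were run in R 4.3.3 with DESeq2 1.42.0, limma 3.58.1 and edgeR 4.0.16. Figures were drawn with Python 3.11.15 and matplotlib 3.10.9. Genes were kept by filterByExpr (23222 of 27191), scaled by TMM and fitted in 1 model of the 4 groups. GFP+ was tested against GFP- at 72 hpf with edgeR's quasi-likelihood test, and the change between stages by the interaction contrast, both adjusted over all genes tested and called at padj below 0.05. Total counts at 72 hpf were 20530602 to 62359004 per library, and no pair of libraries had identical counts. Lists are described by counts and medians only, with no test of a list. The members, the lists and the rule for naming genes were chosen with earlier results of these data known.

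Symbols came from tables of the study for 3874 genes and from a gene name table for 21733, and 1584 have none. Symbols in capitals are human names that the table gives to zebrafish genes. Of the entries of the 12 program lists 362 were matched, 78 of them by the human name, and 16 were not and are not analysed here, *elna* among them. Over the program and marker lists together, 30 of 542 entries were not matched. The rule named the 8 largest rises and falls past padj below 0.05 with and without replicate 1 of GFP-, without overlap of the groups and at a mean of 3 or more on the log2(CPM + 1) scale. It further named up to 5 rises and 5 falls per program list with a mean of at least 1, and 29 genes of a set list whatever their values. Some genes are not reported here. Other genes given by name were chosen after their values were seen.

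The methods describe 1 replicate as both fractions of both stages, which gives the pairing. The correlation of the deviations of same-numbered libraries at 72 hpf was 0.44, -0.07 and 0.53 for replicates 1, 2 and 3. A fit with replicate number as a block was run beside the one reported. The other alternatives were scaling by total counts or by DESeq2's size factors, the Wald test of DESeq2, robust dispersion, all genes unfiltered, a minimum of 10 counts in each library of 1 group, only the libraries at 72 hpf, glmTreat, and leaving out each library at 72 hpf in turn. On simulated counts for the comparison at 72 hpf (23222 genes, 200 changed), edgeR's test recovered 93% of changes of 3 and 26% of changes of 1.5 on the log2 scale, with 6 unchanged genes called. The interaction test recovered 57% of changes of 3. The simulated libraries shared the same mean levels apart from the planted changes, without an outlying library or pairing of replicates. Changes were planted only in genes above a minimum level. The recovery and false calls in the data themselves may therefore differ. Not analysed here were reads on EGFP.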

Additional observations from a re-analysis of the deposited data

Results flagged for a closer look

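Genes named are given here when their GFP+ minus GFP- log2FC differed between the stages, by edgeR's test of the change (log2FC at 72 hpf minus log2FC at 48 hpf, padj below 0.05). This was so for 39 of the 116 genes named, against 2.47% of all genes with a positive and 5.70% with a negative change. Many were named for their difference at 72 hpf, which enters the change, so their number is a description. No explanation of these changes was tested.

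The change was positive, so that the log2FC was larger at 72 hpf, for 12 of these genes. It was 1.83 for *htra1a*, 2.06 for *fbln5*, 1.75 for *tpm4b*, 3.39 for *notch3*, 2.45 for *nrp1a*, 2.001 for *col12a1a* and 2.84 for *angptl2a*. It was also positive for the Frizzled receptors *fzd8a* (1.97) and *fzd10* (2.80), for the gremlin *grem1a* (3.09, ENSDARG00000090720), for the claudin *cldn5a* (3.69) and for the connexin *cx43.4* (1.69).

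The change was negative for 27, at -6.60 for *tagln*, -5.09 for *acta2*, -3.79 for *myl7* and -3.67 for *myl4*. Among ligands it was -5.76 for *wnt5a*, -3.37 for *wnt2*, -3.03 for *wnt4*, -2.87 for *wnt2bb*, -3.93 for *bmp10*, -3.09 for *bmp2a*, -2.29 for *bmp16*, -2.99 for *fgf10a*, -2.64 for *nrg1* and -2.74 for *tgfb1b*. The BMP target *id2b* changed by -4.63.

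Among transcription factors the change was -2.66 for *isl1*, -2.502 and -2.47 for the genes named ISL2, -3.61 for *nkx2.3*, -2.96 for *foxf1* and -3.74 for *klf17*. It was -3.43 for *egfl7*, -3.01 for *col5a3a*, -2.38 for HAPLN1 and -5.10 for *ceacam1*. The photoreceptor genes *opn1lw2* and *rs1a* changed by -6.13 and -5.95, and the retina and lens markers stood far lower in GFP+ than in GFP- libraries at 72 hpf.

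Without replicate 1 of GFP- the changes of *myl4* and of 1 of the genes named ISL2 (ENSDARG00000053499) were no longer called. That ISL2 gene, *ceacam1* and *grem1a* (ENSDARG00000090720) lost theirs without each of the GFP+ libraries, *ceacam1* and *grem1a* also without replicate 2 of GFP-, and HAPLN1 without replicate 1 or 2 of GFP+ or replicate 2 of GFP-. The changes of *opn1lw2*, *nrg1*, *col5a3a*, *nrp1a* and *wnt2* were each lost without at least 1 GFP+ library.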

How the results depend on the processing

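Of the 116 genes named, 93 to 116 kept direction and side of the threshold under each alternative that kept all libraries or only those at 72 hpf. Without replicate 1 of GFP-, 106 did, 6 lost their call and 2 gained one. Leaving out another library lost 6 to 24 calls. Of the 39 changes between stages, 0 to 11 lost their call with 1 library at 72 hpf left out, 9 with total counts, 3 with no filter and 2 with robust dispersion. Among the genes named by the rule, the replicate block changed the call of *myl7* (log2FC 2.21) and, for the change between stages, that of *opn1lw2* (-5.82). The cause of these moves was not tested.

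Genes higher in GFP+ were 1445 in the fit reported, 835 with total counts, 710 with only the libraries at 72 hpf and 787 to 1700 with 1 library left out. Genes lower were 2499, 1631 with only the libraries at 72 hpf and 1621 to 2773 with 1 library left out. DESeq2's Wald test called 2059 and 3384, and the fit with replicate number as a block 2044 and 2439. With glmTreat against the log2FC limit, 49 were higher and 593 lower, against 522 and 1877.

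With only the libraries at 72 hpf, members higher numbered 3 in AVC patterning, 1 in valve endocardium, 6 in mesenchyme, 7 in valve matrix, 6 in smooth muscle and 4 in Wnt. Members lower numbered 1 in AVC patterning, conduction, mesenchyme, second heart field and Wnt, 0 in working myocardium and smooth muscle, and 3 in BMP. With those libraries and no replicate 1 of GFP-, members higher were 21 in working myocardium and 9 in valve matrix. Members lower were 0 in working myocardium and smooth muscle, 15 in valve endocardium, 1 in mesenchyme, elastic fibre and Wnt, and 6 in valve matrix.

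With total counts, members higher were 8 in valve matrix and 0 in Notch, and members lower 2 in conduction and in the second heart field, 1 in mesenchyme and 0 in smooth muscle. DESeq2's Wald test gave 5 lower in valve matrix and in smooth muscle and 3 higher in Notch. The replicate block gave 2 lower in conduction, 6 lower in valve matrix and 4 higher in Notch. It also gave 17 higher in working myocardium, 14 in mesenchyme, 19 in valve matrix and 14 in elastic fibre, and 12 lower in valve endocardium.

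With 1 library left out, members lower ranged from 1 to 2 in AVC patterning, 1 to 5 in conduction, 0 to 1 in working myocardium, 1 to 3 in mesenchyme, 1 to 6 in valve matrix, 0 to 4 in smooth muscle, 2 to 5 in the second heart field, 0 to 4 in Wnt, 3 to 5 in BMP and 3 to 7 in Notch. Members higher ranged from 5 to 20 in working myocardium, 9 to 14 in valve matrix, 4 to 9 in Wnt, 5 to 11 in BMP and 1 to 2 in Notch.

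Genes not called changed sign. HAS2 (0.03) had a log2FC of -0.00215 with DESeq2's size factors, -0.12 with total counts, -0.00189 with the Wald test, -0.0619 with only the libraries at 72 hpf, -0.42 with those and no replicate 1 of GFP-, and -0.34 to 0.38 with 1 library left out. NFATC1 had -0.27 with only the libraries at 72 hpf and no replicate 1 of GFP-, and -0.19 to 0.91 with 1 library left out. *notch1b* ranged from -0.60 to 0.28, and *snai1b* from -0.0513 to 0.20, with -0.00709 for only the libraries at 72 hpf.

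Counts limit genes at low levels. *cx36.7*, *shox2*, ADAMTS5 and *col5a3a* averaged little over 3 CPM or less in both fractions, and at 72 hpf the shallowest library held 20530602 counts.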

Other observations

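The genes next in the order of rises, after those named by the rule, included more secreted or matrix genes. Chosen after their values were seen, *emid1*, an EMI domain matrix protein, had 1231, 1213 and 959 CPM in GFP+ libraries, against 46.4, 98.3 and 82.97 CPM in GFP- libraries (log2FC 3.90 ± 0.35, padj = 4.13e-05), and *olfml2a*, an olfactomedin-like secreted protein, had 372, 321 and 354 CPM in GFP+ libraries, against 23.1, 34.3 and 18.5 CPM in GFP- libraries (log2FC 3.79 ± 0.44, padj = 0.00016). *tnfsf12*, a TNF family ligand, had 206, 245 and 181 CPM in GFP+ libraries, against 11.4, 18.9 and 11.7 CPM in GFP- libraries (log2FC 3.91 ± 0.45, padj = 0.000151), and *ccn2b*, a matricellular CCN protein, had 123, 95.9 and 121 CPM in GFP+ libraries, against 8.30, 7.81 and 6.67 CPM in GFP- libraries (log2FC 3.90 ± 0.47, padj = 0.000179). They were taken from genes whose groups do not overlap and whose call was kept without replicate 1 of GFP- (padj = 1.34e-05, 0.000207, 0.000139 and 0.000221). The change in log2FC between the stages was called for *emid1* (2.85, padj = 0.00400), *olfml2a* (2.32, padj = 0.0274) and *tnfsf12* (3.39, padj = 0.00775), and not for *ccn2b* (0.94, padj = 0.341).

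*si:cabz01070274.1*, for which no function is stated here, had 673, 966 and 1128 CPM in GFP+ libraries, against 30.7, 70.4 and 61.8 CPM in GFP- libraries (log2FC 4.08 ± 0.45, padj = 0.000115), with a mean at 48 hpf of 8.18 CPM in GFP+ and 7.02 CPM in GFP- libraries and a change in log2FC of 3.86 (padj = 0.00345).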
